A study of Mus musculus with 8 samples.

Results

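Adenosine is a purine nucleoside that accumulates outside heart cells when energy supply falls short of demand, and it acts back on the heart through 4 receptors. Adora1 and Adora3 encode receptors coupled to inhibitory G proteins, and Adora2a and Adora2b encode receptors coupled to the stimulatory G protein that raises cyclic AMP. Adora1 is best known in the heart for slowing the sinus node and atrioventricular conduction, and Adora2a for dilating coronary vessels. Outside the cell, Entpd1 (CD39) degrades ATP and ADP to AMP and Nt5e (CD73) turns AMP into adenosine. Slc29a1 carries adenosine across the plasma membrane, Adk phosphorylates it back to AMP inside the cell, and Ada deaminates it to inosine.

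These 9 genes were taken from a deposited table of 23282 genes by matching each Entrez number to the gene symbol, and all 9 were found. RNA-seq libraries came from hearts of male FVB/N mice, 4 months old, 4 libraries from wild-type and 4 from AE3-null animals. AE3 is the chloride/bicarbonate exchanger encoded by Slc4a3. The labels name the tissue only as heart and do not say which chambers were taken or how the null allele was made. The study design gives 4 hearts of each genotype, but the labels do not say which library came from which heart. The p-values cover no more than the spread among the 8 libraries.

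Levels are given as CPM, read counts scaled to a common library size. Slc4a3 fell from 383.5 ± 4.60 CPM to 32.9 ± 1.26 CPM (SD, n = 4; log2 -3.54, edgeR adjusted p 2.83e-19), and no library went against its label. Total counts ranged from 9133628 to 27078351 per library. One wild-type library, replicate 3, lay away from the other 7 along principal component 2. Fits without each library in turn were made for Slc4a3, the tested adenosine genes and the called genes of the wider lists below. The numbers of calls over all genes and in these lists were treated likewise. Length-scaled levels, receptor shares, cell type markers, uncalled genes of the wider lists and genes nearest in pattern were not. Genes were tested with edgeR's quasi-likelihood test across the 14136 genes that passed a filter on low counts, and are called where the Benjamini-Hochberg adjusted p is under 0.05. Over all tested genes 6.47% were called, 3.16% as higher and 3.31% as lower in AE3-null hearts, and the median log2 fold change was -0.002. The balance of directions depended on scaling, with 447 genes higher and 468 lower here and 528 higher and 361 lower when libraries were scaled by total counts alone. In 12.2% of tested genes all libraries of one genotype lay above all of the other.

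The 4 receptor genes are related, so the letters they share bear on how well reads can be assigned to one of them. In GENCODE release M21 their coding sequences were 978 bases long for Adora1, 1230 for Adora2a, 996 for Adora2b and 957 for Adora3. The longest run of identical bases between any pair of these coding sequences was 17 bases, between Adora1 and Adora3, and Adora2a shared at most 15 bases with any other receptor. Below are the 15-base run of Adora2a and Adora2b and the 17-base run of Adora1 and Adora3, 5′ to 3′ with 20 flanking bases on each side. Capitals mark the identical run.
Adora2a, bases 178 to 192 of the coding sequence: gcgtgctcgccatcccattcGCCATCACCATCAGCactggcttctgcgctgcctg
Adora2b, bases 190 to 204 of the coding sequence: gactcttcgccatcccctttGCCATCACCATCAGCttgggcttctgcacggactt
Adora1, bases 424 to 440 of the coding sequence: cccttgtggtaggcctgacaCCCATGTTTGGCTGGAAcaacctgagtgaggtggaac
Adora3, bases 436 to 452 of the coding sequence: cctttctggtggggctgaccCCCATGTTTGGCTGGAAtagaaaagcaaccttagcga
The sequences come from the reference annotation and not from these libraries, and the read length is not given in the sources used here.

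Of the 9 genes 8 passed the filter on low counts, and Adora3 did not. Adora2a was the gene called among the 8, as lower in AE3-null hearts, against 6.47% called over all tested genes. The median log2 fold change of the 8 was -0.04. At an unadjusted p under 0.05 edgeR found 1 of the 8 as lower and 0 as higher, against 11.2% and 9.79% of all tested genes, and DESeq2 and limma voom at an adjusted p under 0.05 also called Adora2a alone.

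Among the receptors, Adora2a was measured in wild-type hearts at 14.03, 12.7, 13.8 and 14.1 CPM in replicates 1 to 4, and in AE3-null hearts at 10.2, 10.1, 9.05 and 8.47 CPM. The highest AE3-null library lay below the lowest wild-type library, which 12.2% of all tested genes also show in one direction or the other. Adora2a fell from 13.7 ± 0.624 to 9.46 ± 0.842 CPM (SD, n = 4), a log2 fold change of -0.54 (SE 0.0837, edgeR adjusted p 0.00108). As a percentage the change was -31.5%, with a 95% confidence interval from -39.4% to -22.5%. These levels rest on 94 to 263 reads per library. The log2 fold change lay between -0.59 and -0.49 in all 17 alternative analyses, the 8 that leave out 1 library included, and the edgeR, DESeq2 or voom adjusted p did not exceed 0.00832.

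Adora1 was the receptor with the most reads, 208 to 580 per library. Its CPM values were 20.1, 20.5, 22.2 and 17.8 in wild-type replicates 1 to 4, and 21.6, 22.4, 22.2 and 21.4 in AE3-null replicates. Wild-type replicate 3 lay inside the AE3-null range and the groups overlapped. AE3-null over wild type stood at log2 0.12 with an SE of 0.0682 (edgeR adjusted p 0.348), and the 95% confidence interval of the difference ran from -1.86% to 19.9%. Adora1 shares 1162 exon bases with Mybph, a myosin-binding protein gene on the opposite strand, and whether reads were counted by strand is not given in the sources used here. If they were not, Adora1 and Mybph reads from the shared stretch cannot be told apart. Mybph itself held 13 to 36 counts per library and was not called (log2 0.16, edgeR adjusted p 0.759).

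Adora2b, the low-affinity receptor of the stimulatory pair, was near the limit of measurement, with 8 to 26 reads per library. Its levels were 0.989, 0.954, 0.722 and 1.123 CPM in wild-type replicates 1 to 4 and 1.10, 0.862, 0.737 and 0.810 CPM in AE3-null replicates. The groups overlapped almost completely. On the log2 scale the difference was -0.11 with an SE of 0.253 (edgeR adjusted p 0.853) and a 95% confidence interval from -0.65 to 0.42. A fall as large as that of Adora2a lies inside this interval.

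Adora3 held 2, 3, 4 and 6 reads in wild-type replicates 1 to 4 and 10, 2, 15 and 11 in AE3-null replicates. These counts correspond to 0.124 to 0.321 CPM in wild-type and 0.216 to 0.789 CPM in AE3-null hearts, and AE3-null replicate 2, the library of lowest depth, lay inside the wild-type range. Exact 95% Poisson intervals, which cover counting error only, ran from 0.118 to 0.699 CPM for the highest wild-type library and from 0.442 to 1.3 CPM for the highest AE3-null library. These intervals overlap, but each comes from 1 library, so they do not test the genotypes. With no filter on low counts the fitted difference was log2 1.03 with an SE of 0.463. It was not called (edgeR unadjusted p 0.0336, adjusted p 0.24). Adora3 shares 779 exon bases with Tmigd3 on the same strand. Of 8 mast cell markers, a cell type in which rodent Adora3 is known, 5 stayed under 1 CPM in every library, and the summed level of the list was 11.04 to 15.1 CPM in wild-type and 12.6 to 14.7 CPM in AE3-null hearts. Kit (8.87 CPM in wild-type and 9.54 CPM in AE3-null hearts on average) and Hdc (2.61 and 2.99 CPM) made up most of that sum. The other mast cell markers averaged under 1 CPM, and each was lower on average in AE3-null hearts. Of the list 3 markers passed the filter and none was called. The part of mast cells in the Adora3 reads was not tested.

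**Figure D1:**
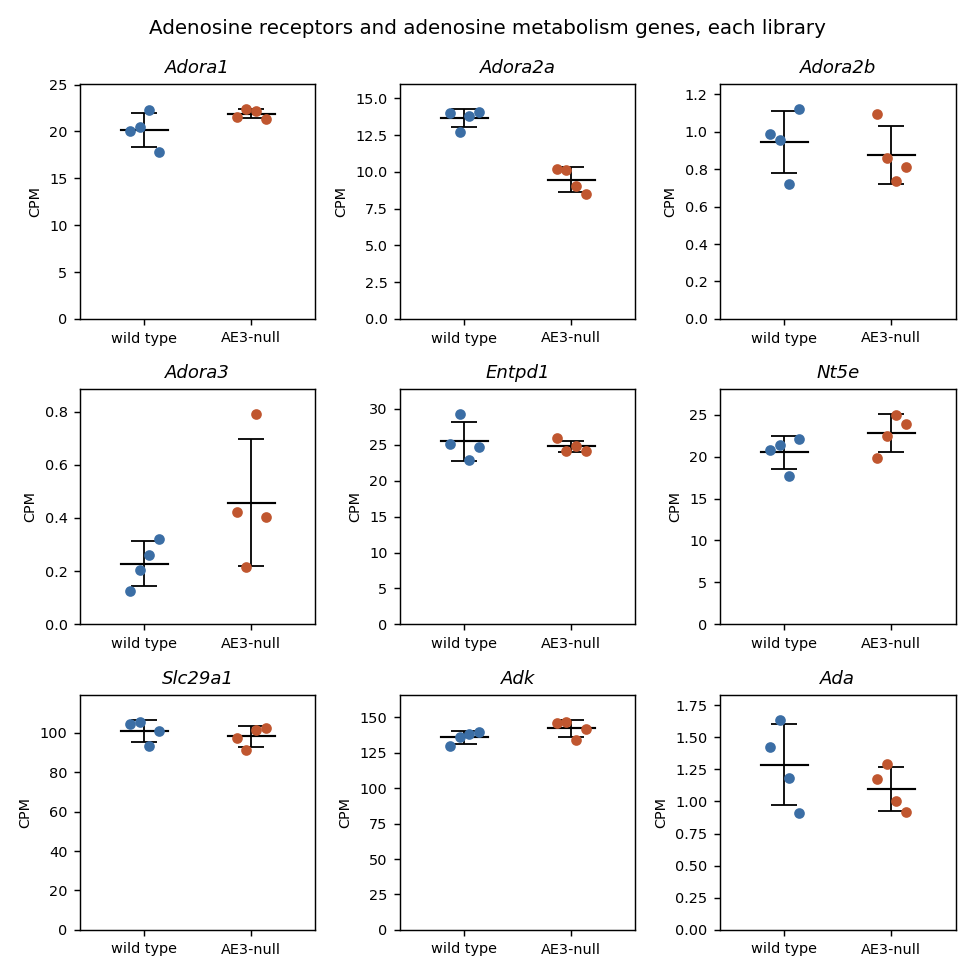
Level of each of the 9 genes in CPM (vertical axis, starting at 0) in wild-type and AE3-null hearts. Points are single libraries, and bars are the mean and SD of 4. Adora2a is the gene whose genotypes do not overlap, at 12.7 to 14.1 CPM in wild-type and 8.47 to 10.2 CPM in AE3-null libraries.

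Neither gene for the enzymes that make adenosine outside the cell passed the test. Entpd1 stood at 25.1, 29.2, 22.8 and 24.7 CPM in wild-type replicates 1 to 4 and at 25.9, 24.1, 24.8 and 24.2 CPM in AE3-null replicates. All 4 AE3-null libraries lay inside the wild-type range. The genotypes differed by log2 -0.04 with an SE of 0.0685 (edgeR adjusted p 0.825), and the confidence interval ran from -11.8% to 7.87%. Its sign depended on wild-type replicate 2, the highest library, without which it was 0.04.

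Nt5e, which catalyses the last extracellular step, was at 20.8, 21.3, 17.7 and 22.1 CPM in wild-type and 19.8, 22.5, 25.0 and 23.9 CPM in AE3-null replicates 1 to 4. The 3 highest libraries were AE3-null, but AE3-null replicate 1 lay below 3 wild-type libraries. For Nt5e the difference was log2 0.15 with an SE of 0.0822 (edgeR adjusted p 0.308), and its confidence interval ran from -1.52% to 25.4%.

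The equilibrative nucleoside transporter gene Slc29a1, the target of the vasodilator dipyridamole, was one of the well measured genes, with 845 to 2779 reads per library. Its levels were 104, 106, 93.0 and 101 CPM in wild-type replicates 1 to 4 and 97.4, 91.0, 102 and 102 CPM in AE3-null replicates. The ranges overlapped along nearly their whole length. The difference was log2 -0.04 with an SE of 0.0479 (edgeR adjusted p 0.718) and a confidence interval from -9.19% to 4.51%. An antisense gene, Gm17080, shares 275 exon bases with it. Red blood cells also carry this transporter, and the summed level of red blood cell markers was 4059 to 6474 CPM in wild-type and 2818 to 3928 CPM in AE3-null hearts, with none of 5 tested markers called by edgeR and 4 lower at an unadjusted p under 0.05. Hba-a1 and Hba-a2 hold identical counts in all 8 libraries, so 1 measurement enters these counts and sums under 2 names. The part of red blood cells in the Slc29a1 level was not tested.

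The enzymes that remove adenosine also did not pass the test. Adk, the adenosine kinase gene, was at 130, 136, 138 and 140 CPM in wild-type and 146, 147, 134 and 142 CPM in AE3-null replicates 1 to 4. Only AE3-null replicate 3 lay inside the wild-type range, and the other AE3-null libraries were above it. The genotypes differed by log2 0.07 with an SE of 0.0401 (edgeR adjusted p 0.377), and the confidence interval ran from -1.34% to 11%. Adk thus had the narrowest interval of the 8 genes.

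Ada, the adenosine deaminase gene, held 12 to 28 reads per library. It was at 1.42, 1.64, 1.18 and 0.909 CPM in wild-type and 1.18, 1.29, 1 and 0.921 CPM in AE3-null replicates 1 to 4. The AE3-null libraries all lay inside the wild-type range. Ada differed by log2 -0.25 with an SE of 0.239 (edgeR adjusted p 0.603), and a change of the size seen for Adora2a lies inside its confidence interval of -40.8% to 19.4%.

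To compare the genes with each other, CPM values were divided by the length in kilobases of the longest transcript of the gene that GENCODE links to RefSeq. On this scale Adk was the highest in wild-type hearts, at 74.7 ± 2.45 CPM per kb (SD, n = 4), followed by Slc29a1 at 45.6 ± 2.54 CPM per kb. Well below them came 4 genes close to each other, Entpd1 at 6.03 ± 0.641, Adora2a at 5.27 ± 0.240, Nt5e at 5.13 ± 0.482 and Adora1 at 4.06 ± 0.367 CPM per kb. Neighbours among these 4 overlapped in their wild-type libraries. In AE3-null hearts the same 4 genes were ordered Entpd1 (5.87), Nt5e (5.71), Adora1 (4.40) and Adora2a (3.64 CPM per kb). Ada at 0.762 ± 0.185 and Adora2b at 0.513 ± 0.0905 CPM per kb were lower and overlapped with each other, and Adora3 was lowest at 0.0961 ± 0.0355 CPM per kb. The order of the top pair depended on the length used: with the union of all annotated exons as length, Slc29a1 was at 25.2 and Adk at 15.9 CPM per kb, and Nt5e (2.38) came below Adora1 (3.49).

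**Figure D2:**
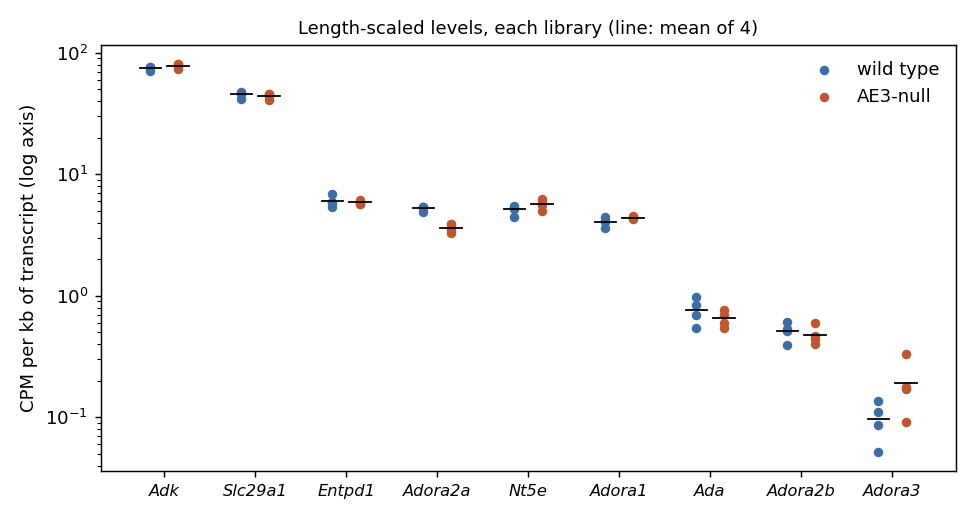
Length-scaled level of each gene in CPM per kb of transcript on a log axis, ordered by the wild-type mean, with a point for each library and a line at the mean of 4. Adora2a moves from above Adora1 in wild-type hearts (5.27 against 4.06 CPM per kb) to below it in AE3-null hearts (3.64 against 4.40 CPM per kb).

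On this length-scaled measure the receptor make-up therefore had another order in AE3-null hearts. On the length-scaled levels, Adora2a made up 53.9%, 50.9%, 51.7% and 55.6% of the receptor total in wild-type replicates 1 to 4 and 43.4%, 43.5%, 40.2% and 39.9% in AE3-null replicates. Adora1 made up 40.8% ± 3.02 of it in wild-type and 50.6% ± 1.95 in AE3-null hearts (SD, n = 4). In every wild-type library Adora2a was the larger of the pair, and in every AE3-null library Adora1 was. The ratio of Adora1 to Adora2a was 0.662 to 0.841 in wild-type and 1.11 to 1.32 in AE3-null libraries. With the union of exons as length it was also below 1 in all wild-type and above 1 in all AE3-null libraries. This could hardly have come out otherwise, as both lengths give nearly the same ratio. They were 4968 and 2596 bases by transcript and 5785 and 3062 bases by union of exons. Without length scaling Adora1 was above Adora2a in both genotypes. Mean levels were 20.2 against 13.7 CPM in wild-type and 21.9 against 9.46 CPM in AE3-null hearts. The summed length-scaled level of the 4 receptors was 9.93 ± 0.299 CPM per kb in wild-type and 8.72 ± 0.393 CPM per kb in AE3-null hearts. These shares follow from the levels above and were not tested on their own.

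Adora2a is known from endothelial and smooth muscle cells of vessels, among others, and the markers of these cells were read beside it. Of the 12 endothelial markers 5 passed the test as lower, against 3.31% of all tested genes. Each of the 12 was measured lower in AE3-null hearts on average (log2 -0.49 to -0.08), and none was at 0. Their summed level was 2027, 2011, 1892 and 2097 CPM in wild-type replicates 1 to 4 and 1736, 1750, 1752 and 1698 CPM in AE3-null replicates. The AE3-null sum was thus 86.4% of the wild-type sum on average, while Adora2a was at 69.2% of its wild-type mean. Per 100 CPM of endothelial markers, Adora2a was at 0.634 to 0.732 CPM in wild-type and 0.499 to 0.587 CPM in AE3-null libraries, and these ranges did not overlap either. Of 9 smooth muscle and pericyte markers 2 were called as higher, Myh11 (log2 0.32) and Abcc9 (log2 0.16), against 3.16% of all tested genes. The other 7 were not called, Rgs5 (log2 -0.05) and Kcnj8 (log2 -0.10) among them. The summed level of the 9 was 1361 to 1417 CPM in wild-type and 1466 to 1572 CPM in AE3-null hearts, with means of 1391 and 1515 CPM. Abcc9 was its most abundant member at 644 and 719.5 CPM on average, and carried a large part of the sum and of its rise. Whether the Abcc9 reads came from smooth muscle cells and pericytes was not tested. In heart tissue, fewer cells of a type and less RNA per cell cannot be told apart. The part of these cell types in the Adora2a result was not tested.

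**Figure D3:**
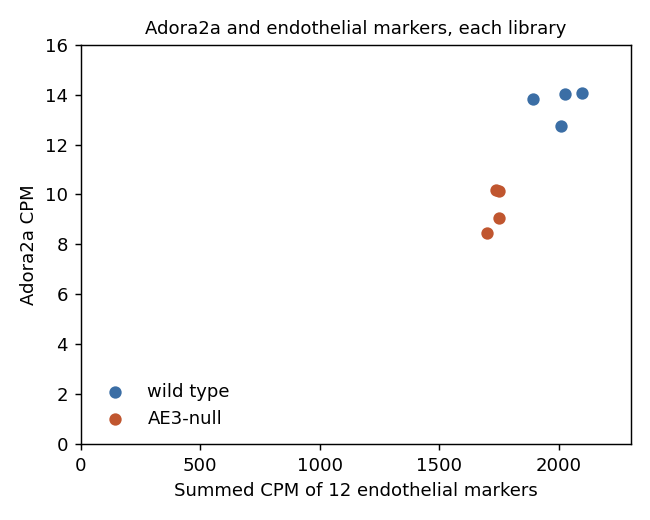
Adora2a level (vertical axis, CPM) against the summed level of 12 endothelial markers (horizontal axis, CPM), with a point for each library and both axes starting at 0. AE3-null libraries lie below wild-type libraries on both axes, and their means are 69.2% of the wild-type mean for Adora2a and 86.4% for the markers.

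Likeness was measured over 10738 other tested genes whose mean reached 5 CPM in either genotype. Predicted or clone-named gene models, genes without a symbol and genes named as pseudogenes were left out. The pattern of Adora2a over the 8 libraries was matched most closely by Slc40a1, the iron exporter ferroportin. The measure was the root mean square difference of log2 levels, each centred on its own mean, and it was 0.073 for Slc40a1. Iqgap2 followed at 0.079, Mctp1 at 0.095, and the basement membrane collagen gene Col4a1 and the amino acid transporter gene Slc38a3 at 0.097. The log2 fold changes of these 5 genes lay between -0.57 and -0.37, and their nearness to that of Adora2a follows from the choice by likeness.

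The wider adenosine pathway was described with 37 further genes, of which 30 passed the filter. Of the 30, 1 was called as higher and none as lower by edgeR, against 6.47% called over all genes, and the median log2 fold change was 0.02. At an unadjusted p under 0.05, 4 were higher and 2 lower, while at an adjusted p under 0.05 limma voom called 1 as higher and 1 as lower and DESeq2 called 0 as higher and 1 as lower. The called gene was Panx2, of the pannexin family, whose relative Panx1 forms an ATP release channel. Panx2 was at 3.71, 2.45, 3.48 and 2.94 CPM in wild-type and 4.55, 4.09, 4.68 and 4.46 CPM in AE3-null replicates 1 to 4. It rose by log2 0.51 (SE 0.138, edgeR adjusted p 0.0366). The groups did not overlap, but the call was lost with DESeq2 (adjusted p 0.0575) and without wild-type replicate 2 (0.1) or 4 (0.116) or any single AE3-null library (0.053 to 0.0951).

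By step of the pathway, none of 4 tested genes for extracellular nucleotide breakdown and none of 5 intracellular nucleotidases was called by edgeR. Among the former was the alkaline phosphatase gene Alpl, which encodes an enzyme that also hydrolyses AMP outside the cell. Alpl stood at 51.4 ± 4.80 CPM in wild-type and 39.9 ± 5.82 CPM in AE3-null hearts (SD, n = 4; log2 -0.35, edgeR adjusted p 0.0697). The other tested nucleoside transporters, AMP deaminases, adenosylhomocysteine hydrolases and inosine-handling enzymes were not called either. The transporter gene Slc28a3 had no read in any library.

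Of 21 tested genes that couple adenosine receptors to their effectors, 4 were called as higher and 1 as lower, against 3.16% and 3.31% of all tested genes, and their median was log2 0.01. Both subunit genes of the potassium channel through which Adora1 and muscarinic receptors hyperpolarize atrial and nodal cells were higher. Kcnj5 was at 125.2, 116, 124 and 109 CPM in wild-type and 160.5, 156, 175 and 176 CPM in AE3-null replicates 1 to 4, a rise of log2 0.50 (SE 0.0505, edgeR adjusted p 5.43e-05). Kcnj3 was at 57.5, 57.0, 66.7 and 49.3 CPM in wild-type and 75.1, 75.7, 68.8 and 74.8 CPM in AE3-null replicates 1 to 4, a rise of log2 0.35 (SE 0.0746, edgeR adjusted p 0.0157). Neither gene's groups overlapped, though wild-type replicate 3 and AE3-null replicate 3 of Kcnj3 lay close together. Kcnj3 no longer passed when wild-type replicate 2 (adjusted p 0.0559), AE3-null replicate 1 (0.051) or AE3-null replicate 4 (0.0587) was left out.

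Gnao1, which encodes an inhibitory-family G protein subunit, was at 50.4, 55.8, 51.8 and 51.6 CPM in wild-type and 57.2, 59.4, 66.5 and 62.1 CPM in AE3-null replicates 1 to 4. It rose by log2 0.23 (SE 0.0532, edgeR adjusted p 0.0168), but did not pass when wild-type replicate 1 (adjusted p 0.0524), wild-type replicate 4 (0.0587), AE3-null replicate 3 (0.0629) or AE3-null replicate 4 (0.0602) was left out. The more abundant inhibitory subunit gene Gnai2 (log2 -0.05, edgeR adjusted p 0.42) and the stimulatory subunit gene Gnas (log2 -0.02, adjusted p 0.749) did not pass the test. Kcnj3 (1621 exon bases), Gnao1 (284), Gnas and Adcy6 (605) share exon bases with genes on the opposite strand, and such reads cannot be told apart if strand was not used in the counting.

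Among adenylyl cyclases, the enzymes that make cyclic AMP, 1 rose and 1 fell. Adcy1 was at 18.5, 21.6, 21.6 and 19.2 CPM in wild-type and 25.9, 27.2, 29.4 and 30.2 CPM in AE3-null replicates 1 to 4, a rise of log2 0.49 (SE 0.0696, edgeR adjusted p 0.000594). Adcy4 was at 35.1, 38.9, 34.2 and 42.7 CPM in wild-type and 29.4, 30.3, 29.6 and 26.8 CPM in AE3-null replicates, and fell by 0.39 on the log2 scale (SE 0.0694, edgeR adjusted p 0.00359). The groups were apart for both genes. The main cyclases of heart muscle, Adcy5 (log2 0.10, edgeR adjusted p 0.261) and Adcy6 (log2 -0.04, adjusted p 0.741), were not called.

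Most atrial markers were also higher in AE3-null hearts. Of 8 atrial cardiomyocyte markers 7 were called as higher, against 3.16% of all tested genes, and none was at 0. The exception was Bmp10 (log2 -0.05, edgeR adjusted p 0.862). The summed level of the 8 was 2938 to 3502 CPM in wild-type and 3912 to 4517 CPM in AE3-null hearts. Nppa was its most abundant member, at 2077 CPM in wild-type and 2783 CPM in AE3-null hearts on average. The summed level of 6 markers of the conduction system was 50.02 to 64.8 CPM in wild-type and 58.0 to 65.2 CPM in AE3-null hearts, with Hcn4 called as higher (log2 0.30, edgeR adjusted p 0.0478), Isl1 and Shox2 under 1 CPM in every library, and Isl1 at 0 in 1 wild-type library. The part of these cells in the rises of Kcnj3, Kcnj5, Gnao1 and Adcy1 was not tested.

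**Figure D4:**
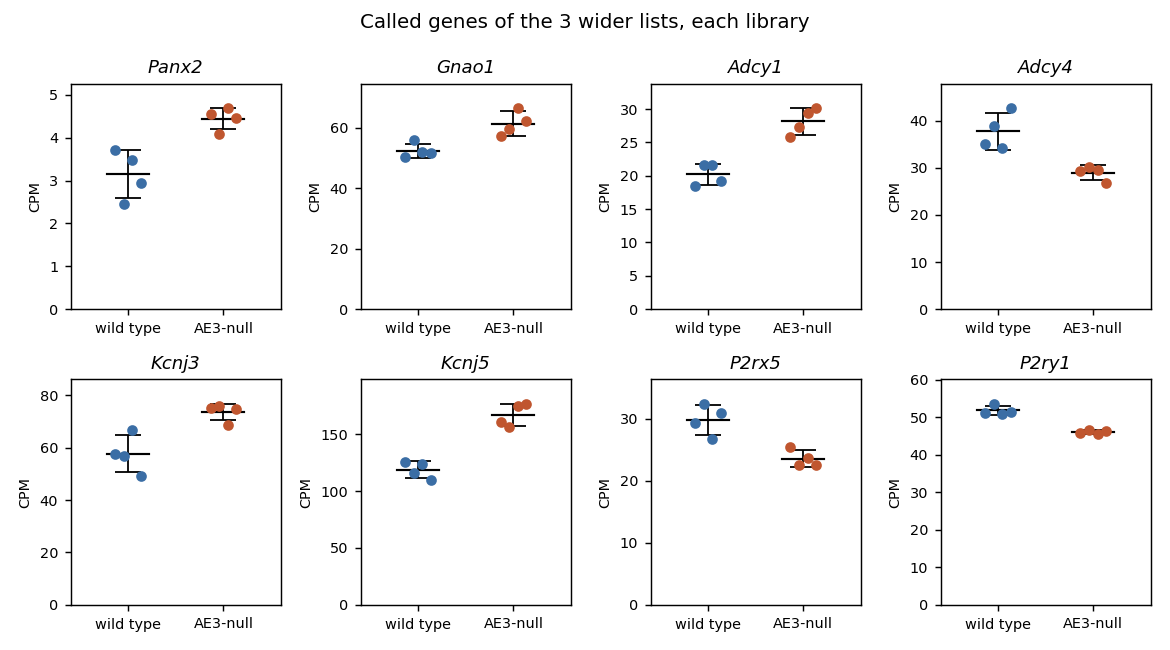
Level in CPM (vertical axes, starting at 0) of the 8 called genes of the wider adenosine pathway, receptor coupling and nucleotide receptor lists, in wild-type and AE3-null hearts. Points are single libraries, bars the mean and SD of 4, and in each panel the 2 genotypes do not overlap.

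Receptors for nucleotides, the adenosine precursors ATP and ADP among them, were the last list, made up of P2X channels and P2Y receptors. Of 14 genes 11 passed the filter and 2 were called, both as lower, against 3.31% of all tested genes, and the median of the 11 was log2 -0.03. The ATP-gated channel gene P2rx5 was at 29.3, 32.4, 26.8 and 30.9 CPM in wild-type and 25.4, 22.5, 23.7 and 22.5 CPM in AE3-null replicates 1 to 4, and fell by 0.34 on the log2 scale (SE 0.0653, edgeR adjusted p 0.0057). P2ry1, which encodes a receptor for ADP, was at 51.2, 53.7, 50.8 and 51.5 CPM in wild-type and 45.9, 46.7, 45.5 and 46.4 CPM in AE3-null replicates. P2ry1 fell by 0.17 on the log2 scale (SE 0.0435, edgeR adjusted p 0.0283). The groups did not overlap for either gene, and P2ry1 shares 992 exon bases with the antisense gene Gm37035. The call of P2ry1 was lost with scaling by total counts (adjusted p 0.0567) and without any 1 library other than wild-type replicate 3 (0.0541 to 0.0811).

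**Figure D5:**
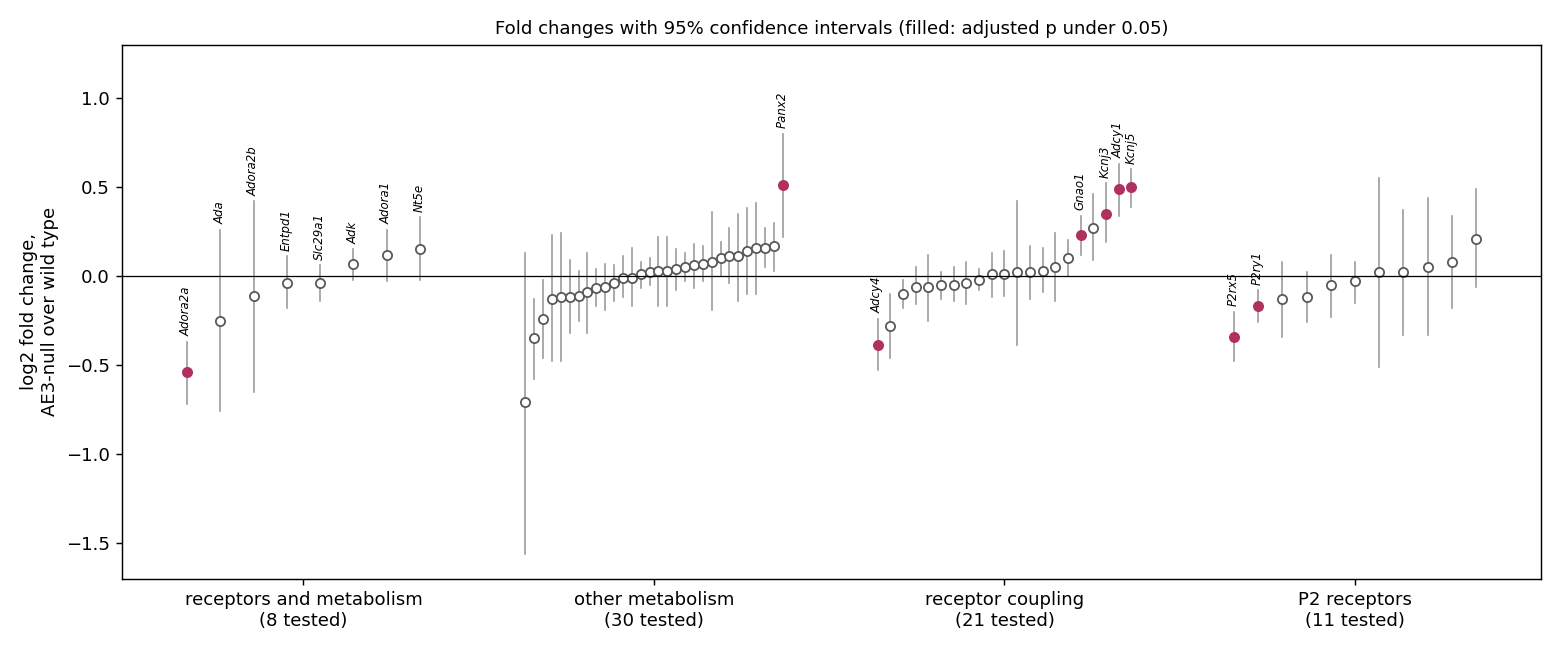
Log2 fold change of AE3-null over wild type (vertical axis) for the tested genes of each list, sorted within the list, with 95% confidence intervals as lines and called genes filled. Of the receptor and metabolism genes, Adora2a at -0.54 is filled, and the intervals of the other 7 include 0.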

How the data were processed

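The authors deposited 1 table of read counts per gene with no normalization, 1 column per library. The submitters' processing notes name bcl2fastq, CASAVA 1.8, TopHat, DESeq and mouse build mm9, without their order or role. Which program counted the reads, with which annotation and strand setting, is not given in the sources used here, nor is the read length. Symbols came from an NCBI RefSeq table of GRCm38.p6 (23185 of 23282 genes matched) and lengths, overlaps and sequences from GENCODE M21. Both are of another build than the counts, so no coordinates are given.

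Counts were filtered with filterByExpr (minimum count 10), scaled by TMM and tested with edgeR 4.0.16 (quasi-likelihood, robust, no covariates) in R 4.3.3. CPM use the TMM-scaled library sizes. The standard error is the log2 fold change divided by the root of F, and 95% intervals come from the moderated degrees of freedom. The fit was tested on simulated data, where edgeR, DESeq2 and limma voom each made false calls at a higher rate than the nominal threshold, so calls with an adjusted p just under 0.05 are less certain than that value states. Alternatives were RLE or total-count scaling, no filter or a minimum count of 50, DESeq2 1.42.0, limma 3.58.1 voom, no robust moderation, an adjusted p under 0.1, the replicate number as a block and each library left out.

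The genes and lists were chosen with earlier results of these data known. All 9 genes and Slc4a3 are named, with up to 6 called genes of each wider list, or the 2 of smallest p where a list had none, and the 5 genes nearest in pattern to a called gene. Myh11, Abcc9, Rgs5, Kcnj8, Cldn5, Kdr, Egfl7, Alpl, Gnai2, Gnas, Adcy5, Adcy6, Slc28a3, Hcn4, Nppa, Bmp10, Kit and Hdc were named after their values were seen. Between libraries of 1 genotype, chi-square per gene was 2.57 to 7.63, above sampling noise, so all 8 were kept as separate.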

Additional observations from a re-analysis of the deposited data

Results flagged for a closer look

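Of 36 sets of 4 libraries examined, 1 held a value far from the other 3, and chance gives about 1 in 20. Kcnj3 was at 68.8 CPM in AE3-null replicate 3, against 74.8 to 75.7 CPM in the other AE3-null libraries.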

How the results depend on the processing

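Adora2a was the called gene of the 8 in all 17 alternatives, and Slc4a3 stayed called in all. The other 7 genes stayed uncalled in each alternative that tested them, which for Adora2b and Ada leaves out the minimum count of 50. Of their signs, that of Entpd1 turned, to 0.04 without wild-type replicate 2 (range with 1 library left out -0.08 to 0.04). No other call among the 8 changed with the replicate number as a block, under which Adora2a was at -0.55 (edgeR adjusted p 0.00169). Same-numbered libraries did not deviate together (correlations of -0.0397 to 0.162), so the number was not taken as a pairing.

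Calls over all genes numbered 1546 at an adjusted p under 0.1. Leaving out 1 library gave 407 (AE3-null replicate 4) up to 1727 (wild-type replicate 3), with 431 without wild-type replicate 4 and 581 and 569 without AE3-null replicates 1 and 3. Of the further pathway genes, DESeq2 and the fit without AE3-null replicate 3 each called 1, as lower, and 0 as higher, against 1 higher and 0 lower in the report. For this list 2 were called by limma voom, 2 without robust moderation, 3 at an adjusted p under 0.1 and 0 to 3 with 1 library left out (0 without wild-type replicate 2 or 4 or AE3-null replicate 1, 2 or 4, and 3 without wild-type replicate 3). Calls among coupling genes ranged from 3 (without AE3-null replicate 4) to 7 with 1 library left out. Of the nucleotide receptors, 1 was called with scaling by total counts and 1 or 2 with 1 library left out.

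With the union of exons as length, wild-type levels were 3.49 for Adora1, 4.46 for Adora2a, 4.56 for Entpd1, 2.38 for Nt5e, 25.2 for Slc29a1 and 15.9 CPM per kb for Adk. The cause of these changes was not tested. Depth limits Adora3, Adora2b and Ada, with at most 28 reads in any library.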
